A study of Homo sapiens with 4 samples.

Results

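The 9 genes described here belong to the p53 pathway and were compared between 2 radiation doses. They are MDM2 and MDM4, which hold p53 in check, and the p53 target genes CDKN1A, DDB2, RRM2B, TP53I3, FDXR, ZMAT3 and GDF15. They were taken by gene name, and all 9 were found among the 58735 genes of the deposited table. RNA sequencing covered 4 libraries of cultured cells, given in the labels as human lung squamous cell carcinoma, 2 at 0 Gy and 2 at 30 Gy (gray, the unit of absorbed dose). The series' text names SK-MES-1, a lung squamous carcinoma line, and SK-MES-1-RR, a radiotherapy-resistant derivative. It does not say which libraries came from which line, how the dose was divided or when RNA was taken, so dose, line and time cannot be told apart and the groups are called 0 Gy and 30 Gy. No separate cultures are stated for the replicates, so p-values reflect spread among these 4 libraries, which may be technical. Whether p53 protein is functional in these cells was not tested.

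p53 is a transcription factor that is stabilised when DNA is damaged. In unstressed cells MDM2, a ubiquitin ligase, marks p53 for destruction, and its relative MDM4 binds p53 and blocks its activity. Stabilised p53 switches on genes that halt the cell cycle, repair DNA, supply nucleotides or promote cell death, and it also switches on MDM2, which closes a feedback loop. Several of its targets can be induced by other stress pathways as well, GDF15 among them.

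p53 binds DNA as a tetramer, at a pair of adjoining half-sites of 10 letters each. Promoter windows of 300 bases (250 before a start site to 50 after it, RefSeq, GRCh38.p14) were searched on both strands for this p53 response element. A match was allowed at most 2 of 20 letters off the consensus, with the central C and G of each half-site fixed and at most 1 letter between the half-sites. This rule was set with the sequences in view. A window was held by 8 of the 9 genes, and RRM2B did not. Matches lay in windows of 2 of these 8 genes, MDM2 and DDB2, beside 0.674% of all 27305 genes. By window, 3 of 14 held a match, beside 0.533% of all 35116 windows. Of these 3 windows, 2 are overlapping MDM2 windows that hold the same site. The genes were picked as p53 genes and the rule was set as stated, so these shares are no test. Sites outside the windows were not searched for, so a gene with no match here may still have an element elsewhere. The matches are shown because MDM2 closes the feedback loop and DDB2 was among the genes that rose, with each half-site in capitals.
MDM2 (chr12:68808923-68808942, plus strand, with 20 bases on either side): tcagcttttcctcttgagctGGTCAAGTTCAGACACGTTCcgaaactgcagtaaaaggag
DDB2 (chr11:47214979-47214999, plus strand): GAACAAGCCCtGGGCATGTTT
The MDM2 match is 1 letter off the consensus in each half-site, the most the rule allowed. It overlaps no annotated exon of that gene and lies in the introns of 7 of its 34 annotated transcripts, 94 bases before the nearest internal start site listed. The DDB2 match has no letter off the consensus and lies 5 bases after a start site, in the untranslated part of an exon of the transcripts DDB2-201 and DDB2-203. A second match in DDB2 shares its first half-site. A match describes letters in a window and shows no binding.

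Levels are given as FPKM, a read measure corrected for gene length and library size. The length is that of all annotated exons of a gene, so the order and percentiles of genes depend on this correction. In reads at 0 Gy, MDM2 (882 and 903) stood above RRM2B (709 and 802), which it does not by FPKM. At 0 Gy the order by mean FPKM was GDF15, CDKN1A, RRM2B, FDXR, MDM4, MDM2, ZMAT3, TP53I3 and DDB2, from 93.0 down to 2.76. Neighbours in this order had library values that overlapped for RRM2B and FDXR and for TP53I3 and DDB2. At 30 Gy the order was CDKN1A, GDF15, RRM2B, DDB2, TP53I3, FDXR, MDM2, ZMAT3 and MDM4, from 39.1 down to 3.09. There DDB2, TP53I3 and FDXR overlapped in turn, as did ZMAT3 and MDM4. CDKN1A thus stood second at 0 Gy and first at 30 Gy, DDB2 moved from rank 9 to rank 4, and MDM4 from rank 5 to rank 9. Among all 13379 tested genes, GDF15 stood at the 97.7th percentile of level at 0 Gy and DDB2 at the 28.0th.

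**Figure D1:**
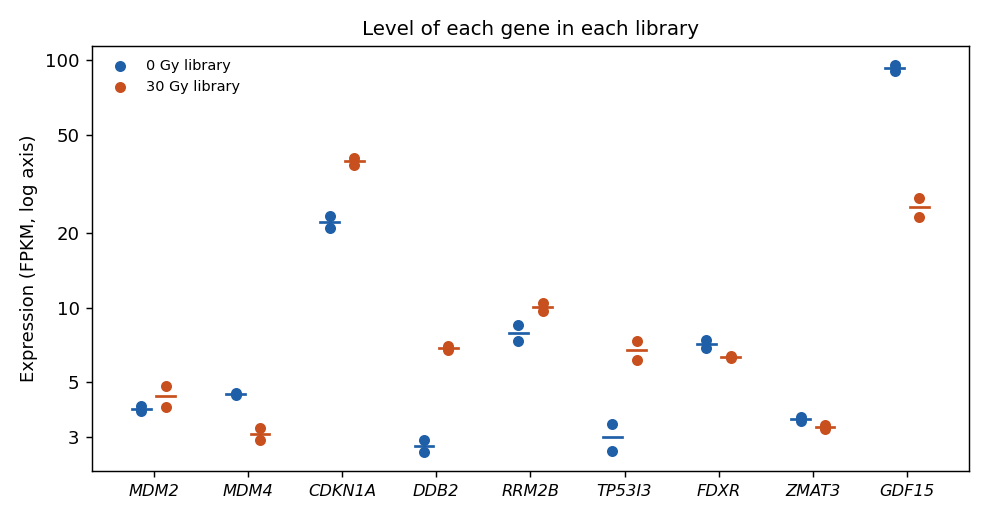
Expression of the 9 genes in each of the 4 libraries, as FPKM on a log axis; points are libraries (2 per dose) and short lines are group means. The 30 Gy points lie above both 0 Gy points for CDKN1A, DDB2, RRM2B and TP53I3, below them for MDM4, FDXR, ZMAT3 and GDF15, and overlap for MDM2.

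Of the 9 genes, 3 were higher at 30 Gy (DDB2, TP53I3 and CDKN1A), 2 were lower (GDF15 and MDM4) and 4 did not pass the test (RRM2B, FDXR, ZMAT3 and MDM2). A gene was called when limma on log2(FPKM + 1) gave an adjusted p under 0.05 over all 13379 tested genes. By the same rule 19.8% of all tested genes were called: 10.8% of all tested genes as higher and 9.06% as lower. The share called among the 9 genes was 55.6%. In bulk RNA, fewer cells expressing a gene and less RNA per cell cannot be told apart. Their median absolute log2 change was 0.43, against 0.20 over all tested genes, and their median signed change was 0.13, against -0.00068. Libraries of different dose were fully apart for 8 of the 9 genes, 4 in each direction. Over all tested genes 65.2% were apart in this way, 32.9% with 30 Gy higher and 32.3% with 30 Gy lower. Without either 0 Gy library limma called 0 of all tested genes, these 9 included (3422 and 3460 at an unadjusted p under 0.05).

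**Figure D2:**
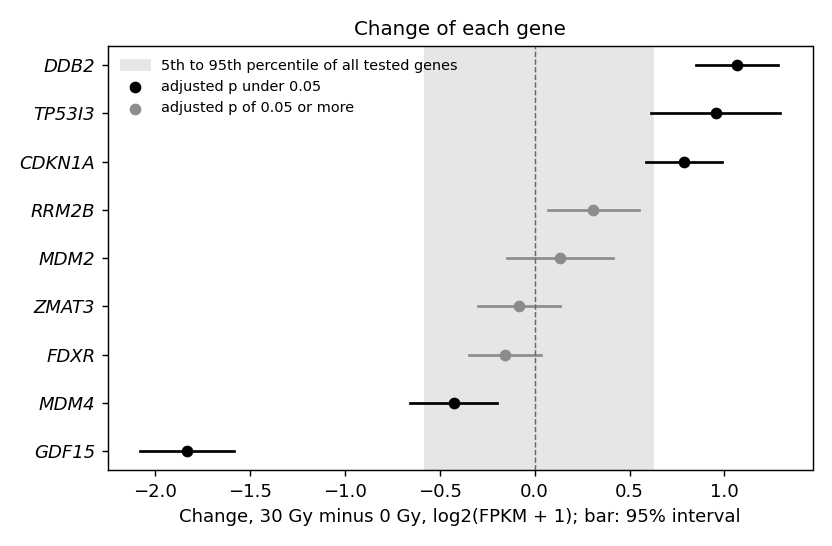
Change of the 9 genes from 0 Gy to 30 Gy on the log2(FPKM + 1) scale, with 95% intervals from limma; the grey band holds the 5th to 95th percentile of all tested genes. DDB2, TP53I3 and CDKN1A lie right of the band and GDF15 left of it, at -1.83.

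MDM2 and MDM4, the inhibitors of p53, did not follow the same course. MDM2 (ENSG00000135679, chr12:68808176-68850686, hg38) stood at 3.81 and 4.0 FPKM at 0 Gy and at 3.97 and 4.84 at 30 Gy. The first 30 Gy library lay between the 0 Gy libraries and only the second stood above them. Its log2 change was 0.13 ± 0.11 (SE, limma adjusted p = 0.417), with a 95% interval of -0.14 to 0.41, so that on this scale a rise above 1.33-fold or a fall beyond 0.906 of the 0 Gy level lay outside the interval. The gene was well covered, with 841 to 1022 reads per library. MDM4 (ENSG00000198625, chr1:204516379-204558120) stood at 4.54 and 4.43 FPKM at 0 Gy and at 2.91 and 3.27 at 30 Gy. Both 30 Gy libraries lay below both 0 Gy libraries. MDM4 fell 1.45-fold by the ratio of means, with a log2 change of -0.43 ± 0.09 (SE, limma adjusted p = 0.0334). This call was lost without the first or the second 30 Gy library (adjusted p = 0.111 and 0.0713), without the first or the second 0 Gy library (0.177 and 0.164) and with no filter on low values (0.114). With the replicate number as a block its adjusted p was 0.0615. The ratio of MDM2 to MDM4 in FPKM was 0.841 and 0.903 at 0 Gy and 1.36 and 1.48 at 30 Gy, so it was higher at 30 Gy. Which gene stood higher at 0 Gy depends on the length correction. In reads at 0 Gy, MDM2 had 882 and 903, above the 869 and 829 of MDM4. The change in this ratio was not tested.

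CDKN1A encodes p21, which binds cyclin-dependent kinases and halts the cell cycle. The gene (ENSG00000124762, chr6:36676460-36687339) stood at 23.4 and 21.1 FPKM at 0 Gy and at 40.4 and 37.9 at 30 Gy. The groups lay well apart, with 1094 to 1244 reads at 0 Gy and 1839 to 1965 at 30 Gy. CDKN1A rose 1.76-fold by the ratio of means, a log2 change of 0.79 ± 0.08 (SE, limma adjusted p = 0.00616). The rise passed without the first or the second 30 Gy library (adjusted p = 0.0410 and 0.0352), and not without the first or the second 0 Gy library (0.0767 and 0.0852).

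DDB2 and RRM2B serve DNA repair and nucleotide supply. DDB2 recognises ultraviolet lesions and guides a CUL4 ubiquitin ligase to them in nucleotide excision repair. It (ENSG00000134574, chr11:47214465-47239240) stood at 2.91 and 2.62 FPKM at 0 Gy and at 6.75 and 6.98 at 30 Gy. Both 30 Gy libraries held more than double the level of either 0 Gy library. DDB2 rose 2.48-fold by the ratio of means with a log2 change of 1.06 ± 0.08 (SE, limma adjusted p = 0.00392). The rise passed without either 30 Gy library (adjusted p = 0.0326 and 0.0312), and not without the first or the second 0 Gy library (0.0767 and 0.0800). RRM2B, the p53-inducible small subunit of ribonucleotide reductase (ENSG00000048392, chr8:102204502-102239118), stood at 7.34 and 8.50 FPKM at 0 Gy and at 10.4 and 9.66 at 30 Gy. The groups did not overlap; the gap between the 0 Gy libraries was 0.19 on the log2 scale. The log2 change of RRM2B was 0.31 ± 0.09 (SE, limma adjusted p = 0.0771). It passed when only genes of FPKM 5 or more were tested (adjusted p = 0.0457) and with voom on recovered reads (0.0222), a rule that called 31.6% of all tested genes.

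TP53I3, FDXR and ZMAT3 belong to the redox and RNA-binding arms of the response. TP53I3, a quinone oxidoreductase tied to p53-driven cell death (ENSG00000115129, chr2:24077433-24085861), stood at 3.38 and 2.65 FPKM at 0 Gy and at 7.37 and 6.17 at 30 Gy. The groups were apart, though the libraries of each dose differed from one another more than for DDB2. TP53I3 rose 2.25-fold by the ratio of means, a log2 change of 0.96 ± 0.13 (SE, limma adjusted p = 0.0131). It had the thinnest coverage of the 9 genes, 104 to 272 reads per library. The rise did not pass without the first 30 Gy library (adjusted p = 0.0612), without the first or the second 0 Gy library (0.0884 and 0.105) or with no filter (0.0798).

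FDXR, a mitochondrial reductase that passes electrons to ferredoxin (ENSG00000161513, chr17:74862497-74873031), stood at 7.41 and 6.88 FPKM at 0 Gy and at 6.39 and 6.24 at 30 Gy. Its 30 Gy libraries were the lower ones, by a small margin. The log2 change was -0.16 ± 0.07 (SE, limma adjusted p = 0.198), with a 95% interval of -0.35 to 0.04. ZMAT3, a zinc finger protein that binds RNA (ENSG00000172667, chr3:179017223-179072279), stood at 3.61 and 3.48 FPKM at 0 Gy and at 3.25 and 3.34 at 30 Gy, also slightly lower at 30 Gy. Its log2 change was -0.08 ± 0.08 (SE, limma adjusted p = 0.523), with a 95% interval of -0.30 to 0.13. The upper ends of these intervals lay below the lower ends for CDKN1A (0.59), DDB2 (0.85) and TP53I3 (0.62). The differences between genes were not tested.

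GDF15, a secreted cytokine of the TGF-beta superfamily that is induced by many stresses, moved against these rises. The gene (ENSG00000130513, chr19:18374731-18389176) stood at 95.6 and 90.5 FPKM at 0 Gy and at 27.7 and 23.3 at 30 Gy. It had 3210 to 3472 reads at 0 Gy and 775 to 922 at 30 Gy. GDF15 fell 3.65-fold by the ratio of means, with a log2 change of -1.83 ± 0.10 (SE, limma adjusted p = 0.00179). The size of this change stood at the 99.6th percentile of all tested genes, and that of DDB2 at the 97.4th. The fall passed without either 30 Gy library (adjusted p = 0.0157 and 0.0162), and not without the first or the second 0 Gy library (0.0760 and 0.0734).

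Neighbouring genes were compared, because chromosomal position can be shared by genes that move together. For each of the 9 genes the 5 nearest tested genes on either side were taken. DDB2, at 1.06, stood above all 10 of its neighbours, which ran from -0.61 to 0.56 on the log2 scale, with 1 called higher (ACP2, a lysosomal phosphatase) and 1 lower. CDKN1A, at 0.79, stood above neighbours of -0.48 to 0.24, of which 0 were called. TP53I3, at 0.96, stood above neighbours of -0.13 to 0.61, of which 2 were called higher, UBXN2A at 0.50 and CENPO at 0.48. MDM4, at -0.43, stood just below neighbours of -0.37 to 0.50, of which 1 was called lower, PPP1R15B at -0.31. For GDF15 the nearest gene, the microRNA gene MIR3189 inside its span, moved with it (log2 change -1.85) on 0 to 6 reads per library. The other 9 neighbours of GDF15 ran from -0.51 to 0.32, and the lowest of them, SSBP4, was called lower. MDM2, RRM2B, FDXR and ZMAT3 lay inside the range of their neighbours. The 3 neighbours of MDM2 that were called, CPM (carboxypeptidase M), YEATS4 and FRS2, were higher at 30 Gy by 0.54, 0.38 and 0.46. Of the 10 neighbours of FDXR 1 was called higher (CDR2L) and 1 lower (NAT9), and of those of RRM2B and ZMAT3 0 were called. Over all tested genes 10.8% were called higher and 9.06% lower.

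**Figure D3:**
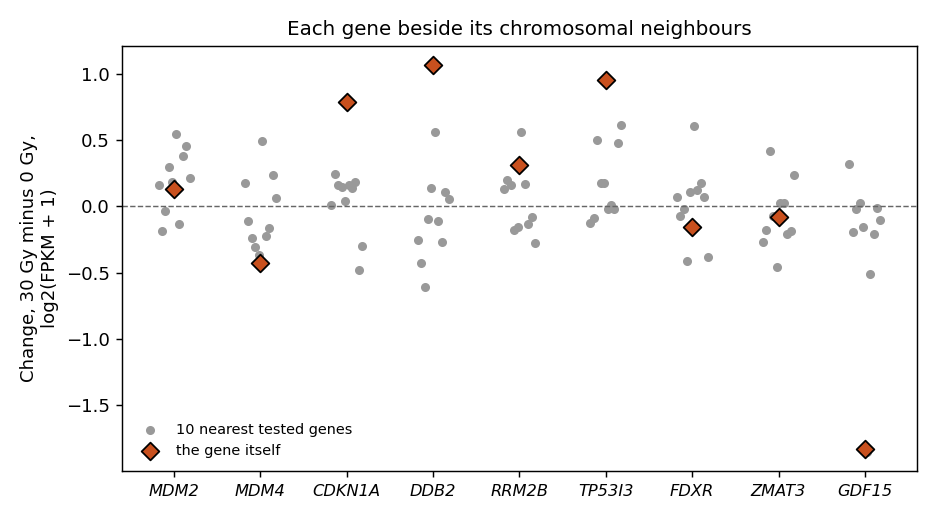
Change of each gene (diamonds) beside its 10 nearest tested genes (grey points, 5 on either side) on the log2(FPKM + 1) scale. DDB2, CDKN1A and TP53I3 lie above all their neighbours, MDM2 at 0.13 lies among them, and the neighbour of GDF15 at -1.85, MIR3189, is hidden behind its diamond.

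Overlapping genes can share reads where counting does not use strand, and the strandedness of these counts is not given in the sources used here. TP53I3 lies within the span of FAM228B on the opposite strand, with 80 shared exon bases (3.46% of the TP53I3 exons), and FAM228B was at 0.787 FPKM at 0 Gy and 0.664 at 30 Gy. MDM2 shares 133 exon bases with CPM on the opposite strand (1.0% of the MDM2 exons), and CPM was at 2.23 and 3.72 FPKM. It also shares 785 exon bases (5.91%) with AC025423.4 on the opposite strand and 439 with the pseudogene AC025423.2 on its own strand, both listed at 0 in all libraries. CDKN1A shares 146 exon bases with the opposite-strand RNA DINOL, which had 0 reads. Any part of such reads in these values was not tested.

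Most genes of upstream p53 control were not called. Of 22 damage kinases and modifiers of p53, 2 were higher and 2 lower at 30 Gy, with a median log2 change of 0.04. These counts were close to the background of 10.8% higher and 9.06% lower. PPP1R13L, which encodes the p53 inhibitor iASPP, rose from 4.24 ± 0.0682 to 8.25 ± 0.720 FPKM (SD, n = 2 each). CHEK1, a checkpoint kinase of replication stress, rose from 2.95 ± 0.333 to 5.44 ± 0.338. HIPK2, a kinase that phosphorylates p53 and favours cell death, fell from 22.5 ± 0.743 to 14.0 ± 0.331. PPP1R13B, which encodes the p53 activator ASPP1, fell from 2.48 ± 0.173 to 1.53 ± 0.0379 (limma adjusted p = 0.0462).

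Among 53 further p53 target genes that were tested, 6 were higher and 8 lower at 30 Gy, with a median log2 change of -0.02. These shares, 11.3% and 15.1%, stand beside 10.8% and 9.06% over all tested genes. Of 9 cell cycle arrest targets 1 rose and 2 fell. E2F7, a repressor of E2F target genes, rose from 7.98 ± 0.500 to 15.6 ± 0.200 FPKM, whereas GADD45A, a damage-inducible inhibitor of growth, fell from 57.9 ± 1.96 to 42.0 ± 1.46 and PLK2, a polo-like kinase, from 205 ± 0.805 to 158 ± 2.99. Of 14 cell death targets 3 rose and 1 fell, and these calls became 0 and 0 with no filter, with the replicate block and without any 1 of the 4 libraries. TP53INP1, a cofactor of p53 in cell death, rose from 1.42 ± 0.0416 to 2.61 ± 0.311, APAF1 of the apoptosome from 1.98 ± 0.0174 to 3.03 ± 0.0636 and PERP, a desmosome protein, from 68.5 ± 2.06 to 83.9 ± 3.36. The nuclease gene AEN fell from 7.57 ± 0.0311 to 5.77 ± 0.0152. The limma adjusted p of these 4 genes ran from 0.0296 to 0.0368.

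Most targets in repair, metabolism and signalling were not called, beside 10.8% higher and 9.06% lower over all tested genes. Of 6 repair and damage tolerance targets 1 rose and 0 fell: GADD45B, a relative of GADD45A, from 6.05 ± 0.611 to 10.8 ± 0.442 FPKM. Of 11 metabolic and redox targets 0 rose and 3 fell. DDIT4 and SESN2, both inhibitors of mTORC1 that other stress pathways also induce, fell from 49.3 ± 2.50 to 12.0 ± 0.0512 and from 14.6 ± 0.270 to 6.03 ± 0.221, and NADSYN1, of NAD synthesis, from 12.6 ± 0.478 to 8.86 ± 0.205. Of 13 signalling and other targets 1 rose and 2 fell. TM7SF3, a membrane protein, rose from 15.8 ± 1.23 to 23.1 ± 0.377. IER5, an immediate early gene, fell from 49.4 ± 1.17 to 25.9 ± 3.11 and KITLG, the ligand of the receptor KIT, from 33.5 ± 2.41 to 17.7 ± 0.602.

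The partner list holds protein partners of the 9 genes, many of them cyclins and their kinases, and also relatives of members (RRM2, CDKN1B and CDKN1C). Of its 18 tested genes 8 rose (44.4%, beside 10.8% of all tested genes) and 0 fell, with a median log2 change of 0.38. RRM2 and CDKN1B were among those that rose, so the share is not one of partners alone. The higher calls became 4 without the first 30 Gy library, 2 without the second and 4 with no filter, and 1 partner was called lower with the FPKM 5 filter, median centring, robust eBayes, voom or the replicate block. RRM2, the S-phase counterpart of RRM2B, rose from 12.4 ± 0.887 to 23.5 ± 0.483 FPKM and RRM1, the large subunit that both pair with, from 27.2 ± 0.216 to 39.5 ± 0.777. CDK1, a kinase that p21 can inhibit, rose from 18.8 ± 1.11 to 28.1 ± 1.37. Genes that the DREAM complex represses, which p21 lowers in cells where it arrests the cycle, stood higher beside the rise of CDKN1A. Of 21 such genes 17 rose (81.0%, beside 10.8%) and 0 fell, with a median log2 change of 0.51. These calls became 8 without the first 30 Gy library, 7 without the second and 6 with no filter. KIF20A, a mitotic kinesin, rose from 14.1 ± 0.484 to 27.5 ± 0.0680, MYBL2, a transcription factor of cycling cells, from 20.4 ± 0.443 to 38.5 ± 3.50 and the cyclin CCNB2 from 17.9 ± 0.269 to 31.6 ± 0.379. The share of cells in each cycle phase was not measured, and its part in these values was not tested. Over the 113 tested genes of all these lists 32 were higher (28.3%, beside 10.8%) and 10 lower (8.85%, beside 9.06%). All the lists, the partner and DREAM lists included, were chosen with earlier results of these data known. Their shares are therefore a description and no test. Most of the higher calls lay in the partner and DREAM lists (8 and 17, with CDK1 in both), against 6 of 53 in the target lists. Without the first 30 Gy library these counts were 14 and 5, without the second 11 and 5, with no filter 12 and 4, and without either 0 Gy library 0 and 0.

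**Figure D4:**
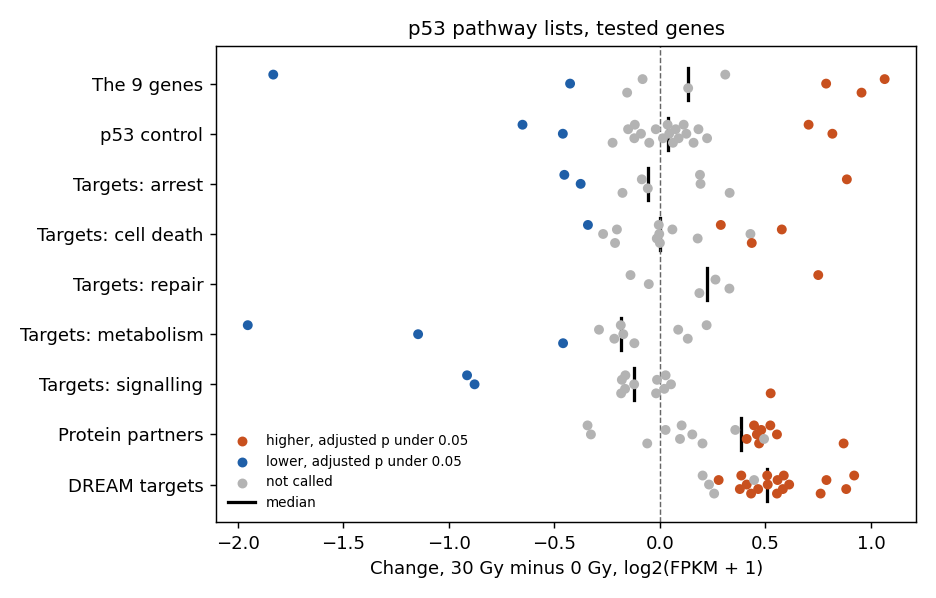
Changes of tested genes in the 9-gene set and in 8 lists of the p53 pathway, on the log2(FPKM + 1) scale; each point is a gene, black bars are medians, and colour marks genes called higher or lower at 30 Gy. The target lists scatter around 0, while the DREAM targets have a median of 0.51.

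The genes whose values across the 4 libraries lay closest to those of the called genes were found by the root mean square difference of centred log2(FPKM + 1), over 11124 other protein-coding genes. For CDKN1A they were FAM20C, METTL27 and EME1 (0.0199, 0.0228 and 0.0229). For DDB2 they were BHLHE40, PORCN and PLAUR (0.0230, 0.0297 and 0.0360), and for TP53I3 they were ANGPTL4, DACT1 and CD70 (0.00809, 0.0411 and 0.0561). For MDM4 they were NAA11, SIX3 and MOAP1 (0.00842, 0.00972 and 0.0126), and for GDF15 they were RAP1GAP, TNFRSF18 and NCR3LG1 (0.0504, 0.0614 and 0.0671). None of these genes is on the p53 lists, which hold only 113 of the 13379 tested genes, so nothing is read from this absence. All points share the same 4 libraries in 2 groups, so the measure is close to a match in the size of the change.

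Library depth, as whole reads recovered from the FPKM values, was 15920861 to 17261121. Of 6 squamous markers, TP63 was at 4.04 and 3.26 FPKM (0 Gy and 30 Gy means), SOX2 was at 0.173 and 0.512, KRT14 was at 0.0252 and 0.0551, and KRT5, KRT6A and DSG3 had 0 reads in all libraries, where 3 reads would equal at most 0.0644 FPKM. Summed fibroblast markers ran from 62.8 to 63.2 at 0 Gy and from 72.4 to 78.6 at 30 Gy, nearly all from COL1A1, with DCN at 0 reads. The fibroblast markers LUM and PDGFRB were at 0.0584 and 0.685 FPKM at 0 Gy and at 1.11 and 1.48 at 30 Gy, with no overlap between groups; LUM was not tested and PDGFRB did not pass (limma adjusted p = 0.0535). Their part in the results was not tested. Summed markers of immune, endothelial and lung adenocarcinoma cells each stayed at or below 0.160.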

How the data were processed

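The authors deposited 1 table of FPKM values per gene and library, with gene lengths, on hg38 per the submitters' processing notes. For the aligner, counter, annotation release and strandedness: not given in the sources used here. In each library 100% of values above 0, times gene length, were whole multiples of 1 step (tolerance 0.001), which gave whole reads. Floors from reads cover counting error only. The 95% intervals come from limma and rest on the spread among the libraries. The deposited length of each of the 9 genes equals its summed exons in GENCODE v29, so rarely used exons lower its FPKM, and isoforms were not resolved.

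Genes reaching FPKM 1 in 2 or more libraries (13379) entered limma 3.58.1 in R 4.3.3: lmFit and a trended eBayes on log2(FPKM + 1), two-sided, 30 Gy minus 0 Gy, with Benjamini-Hochberg adjustment over all tested genes. This scale understates changes of genes with low FPKM. The fit has 2 residual degrees of freedom. An exact permutation test of 2 against 2 cannot reach 0.05. The code was checked on simulated data, where the main limma fit missed most of the smallest changes. The share of its calls that fell on unchanged genes was above the 0.05 set by the adjusted p. That share was larger than with voom on recovered reads. All 9 genes are named; of each list, up to 3 higher and 3 lower calls with the largest change. Alternatives were another pseudocount, other filters, median centring, quantile normalization, eBayes without trend or robust, voom on recovered reads, leaving out each library, and a replicate block. The 9 genes, the lists and the design were chosen with earlier results of these data known. Replicates differed by more than sampling noise (mean chi-square per gene 6.31 and 5.68). Promoter letters are from RefSeq, transcripts from GENCODE v29.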

Additional observations from a re-analysis of the deposited data

How the results depend on the processing

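No change of the 9 genes reversed direction under any alternative run. With no filter, MDM4 (-0.43, adjusted p = 0.114) and TP53I3 (0.96, adjusted p = 0.0798) no longer passed, leaving 1 of the 9 genes lower, and the other lists held 12 higher and 4 lower. At a filter of FPKM 5 RRM2B passed (0.31, adjusted p = 0.0457), as it did with voom (0.33, adjusted p = 0.0222). With that filter MDM2, MDM4 and ZMAT3 were not tested, so 1 of the 9 was lower. With the replicate block MDM4 did not pass (-0.43, adjusted p = 0.0615), leaving 1 lower, and no other call among the 9 changed. Same-numbered libraries did not deviate together (r = -0.026 over 13379 genes), so the numbers are not shown to pair them; over all genes the block moved the calls from 2654 to 1926.

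With each library left out, the log2 change ran from 0.71 to 0.86 for CDKN1A, 1.01 to 1.12 for DDB2, 0.823 to 1.09 for TP53I3, -1.95 to -1.71 for GDF15, -0.49 to -0.36 for MDM4, 0.22 to 0.40 for RRM2B, 0.02 to 0.25 for MDM2, -0.20 to -0.11 for FDXR and -0.10 to -0.06 for ZMAT3. The count called among the 9 ran from 0 to 3 higher and 0 to 1 lower, and among the other lists from 0 to 14 higher and 0 to 5 lower. These fits leave a group with 1 library, assumed to vary like the other group. The cause of lost calls was not tested.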
